A study of Homo sapiens with 6 samples.

Results

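The FET proteins, which include EWSR1 and TAF15, and the hnRNP A/B proteins, among them HNRNPA1, HNRNPA2B1 and HNRNPA3, are abundant nuclear RNA-binding proteins with low-complexity, prion-like segments. They bind nascent transcripts, take part in transcription and splicing, and gather in RNA granules. HNRNPA2B1 has also been described as a nuclear reader of N6-methyladenosine (m6A), the internal mRNA mark written by the METTL3 complex. The members described here are 5 of 20037 coding genes in the RefSeq table used: TAF15, EWSR1, HNRNPA2B1, HNRNPA1 and HNRNPA3. A peak belongs to a gene if it shares at least 1 base with the gene body on GRCh38. TAF15 and HNRNPA2B1 were chosen from the peak lists themselves, because both knockdown lists hold peaks in them and the control list holds none. That pattern is therefore a description of the choice and no finding, and the other members were added by family.

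The peaks come from methylated RNA immunoprecipitation sequencing of the human glioblastoma line U-251 MG, in which fragmented total RNA is pulled down with an m6A antibody and sequenced beside its input. Cells carried a control hairpin (shNC), a hairpin against the splicing regulator TRA2A (shTRA2A) or a hairpin against METTL3 (shMETTL3). There are 6 libraries, 1 immunoprecipitated and 1 input library for each of the 3 conditions, and 1 peak list per condition. Differences between lists thus have no replicates behind them and were not tested, and the depth of each library is not stated in the labels. The labels give 1 hairpin name per target and do not state whether cells were clonal or how the hairpins were delivered. Among glioma markers, NES had 3 shNC, 3 shTRA2A and 5 shMETTL3 peaks, SOX9 had 1 in each list and CD44 had 1, in shNC. VIM and the markers of neurons (RBFOX3) and leukocytes (PTPRC) had none, and peak lists carry no transcript level with which to check the cell type. For the same reason they do not show how far either hairpin lowered its target. TRA2A had 1 peak, in shTRA2A, and METTL3 had none in any list.

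The 5 genes carried 6 shNC, 11 shTRA2A and 8 shMETTL3 peaks. At least 1 peak was present in 3 of them in shNC, in all 5 in shTRA2A and in 4 in shMETTL3. Over all coding genes, 21.9% had an shNC peak, 9.55% an shTRA2A peak and 17.1% an shMETTL3 peak. The lists hold 9206 shNC, 2736 shTRA2A and 5433 shMETTL3 peaks. The choice of TAF15 and HNRNPA2B1 bears on the member counts, since the other 3 genes had 6 shNC, 6 shTRA2A and 4 shMETTL3 peaks. More methylation per transcript and more transcript cannot be told apart in peak lists. The shTRA2A peaks of the 5 genes spanned 7492 nt, against 1789 nt in shNC and 5061 nt in shMETTL3. All 25 peaks were single blocks, and every peak of a given gene lay on the same strand. When only single-block peaks with a width of at most 1000 nt and a multiple of 25 nt were kept (a limit added once widths had been seen), the counts were 5 shNC, 5 shTRA2A and 4 shMETTL3 peaks, without a larger number in shTRA2A. Some spans may cross introns, since no exon annotation was used here, so the spans are no measure of methylated sequence.

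**Figure D1:**
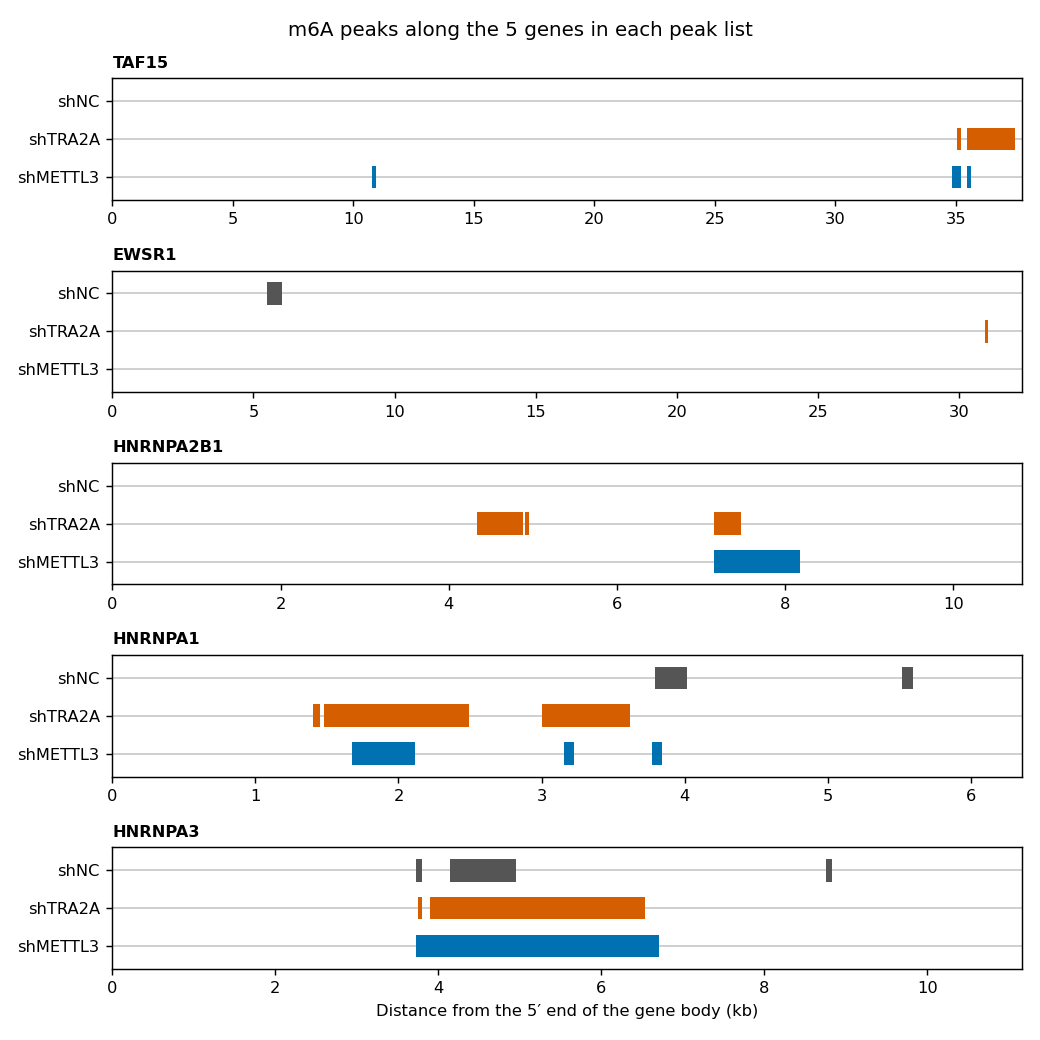
Peaks of TAF15, EWSR1, HNRNPA2B1, HNRNPA1 and HNRNPA3 along each gene body, with distance from the 5′ end in kb on the x axis and 1 track per peak list (shNC grey, shTRA2A orange, shMETTL3 blue). Very narrow peaks are drawn slightly wider than they are so that they can be seen. The shNC track is empty for TAF15 and HNRNPA2B1, and the shTRA2A track is filled for all 5 genes.

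Each peak carries a score from the authors' peak caller, whose scale is not stated, and higher scores were read as stronger peaks. Scores ran from 6.04 to 392 in shNC, from 3.39 to 54.5 in shTRA2A and from 3.33 to 151 in shMETTL3, so only the rank within a list is used below.

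TAF15, a FET protein that associates with the general transcription factor TFIID (gene body chr17:35809484-35847242, 37759 nt), had 0 shNC, 2 shTRA2A and 3 shMETTL3 peaks. The shTRA2A peaks were chr17:35844523-35844672 (150 nt, score 16.6, rank 61 of 2736) and chr17:35844923-35846939 (2017 nt, score 23.2, rank 20). Both lay in the last part of the gene, the longer one ending 303 nt before the annotated gene end. In shMETTL3, chr17:35844340-35844672 (333 nt, score 8.36, rank 2755 of 5433) and chr17:35844948-35845022 (75 nt, score 9.25, rank 2031) fell on the same 2 places. The first of these ended on the same base as the first shTRA2A peak, and the second lay wholly inside the long shTRA2A peak. The remaining shMETTL3 peak stood apart at chr17:35820271-35820320, 10787 nt from the start of the gene. It was 50 nt wide and had a score of 99.6, rank 3 of the whole shMETTL3 list, and no peak of another list lay on it. Of the other 9 among the 10 best shMETTL3 peaks, 2 were at most 75 nt wide. The nearest shNC peak was 85712 nt outside the TAF15 body.

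HNRNPA2B1 (chr7:26189927-26200746, minus strand, 10820 nt) had 0 shNC, 3 shTRA2A and 1 shMETTL3 peaks. The shTRA2A peaks formed a pair in the middle of the gene and a single peak nearer its 3′ end. The pair was chr7:26195867-26196407 (541 nt, score 13.5, rank 120) and chr7:26195792-26195841 (50 nt, score 13.97, rank 110), separated by 25 nt. The single peak was chr7:26193274-26193599 (326 nt, score 17.8, rank 52), and the shMETTL3 peak, chr7:26192576-26193599 (1024 nt, score 8.91, rank 2258), began at the same 5′ base and ran further downstream. The middle pair had no counterpart in shMETTL3. With the same limit on widths, HNRNPA2B1 kept 1 shTRA2A and no shMETTL3 peak, and TAF15 kept 1 and 2. The nearest shNC peak lay 3893 nt outside the gene body, at chr7:26185410-26186034 on the opposite strand and within the neighbouring gene NFE2L3, with a score of 66.5. Lying in another gene, that peak does not show how well HNRNPA2B1 RNA was covered in shNC.

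Genes with peaks in both knockdown lists and none in shNC numbered 213, which is 19.3% of the 1103 coding genes with a peak in both knockdown lists and 1.06% of all coding genes. TAF15 and HNRNPA2B1 belong to them by choice. Of the coding genes with an shTRA2A peak, 34.0% had no shNC peak, and of those with an shMETTL3 peak, 37.5%. Ordered by the weaker of their 2 within-list score percentiles, TAF15 was first of the 213 and HNRNPA2B1 was at place 44. For TAF15 the shMETTL3 percentile is that of its isolated 50 nt peak (rank 3), on which no shTRA2A peak lay. Its shMETTL3 peaks that met an shTRA2A peak ranked 2031 and 2755 of 5433. The order uses the same lists as the choice of these genes. The genes that followed TAF15 at the top of this order were RUFY2, a RUN and FYVE domain protein, TRIM41, a ubiquitin ligase, CENPB, a centromere protein, PSMD1, a proteasome subunit, and RBM27, an RNA-binding protein. Their likeness to TAF15 covers 3 peak lists alone, HNRNPA2B1 stands well below them, and the best peaks of the 2 knockdown lists in these genes need not lie at the same place. RUFY2 overlaps HNRNPH3, whose peaks are given below. The best RUFY2 peaks in shTRA2A (rank 18) and shMETTL3 (rank 64), which set its place, touch HNRNPH3 too. HNRNPH3 had 1 shNC peak, so the place of RUFY2 depends on which gene these peaks belong to.

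**Figure D2:**
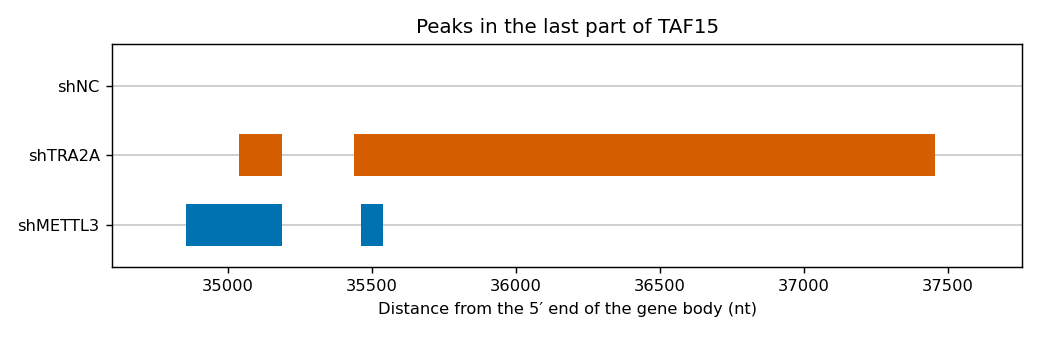
Peaks in the last part of TAF15, with distance from the 5′ end of the gene body in nt on the x axis and 1 track per list. The shTRA2A and shMETTL3 peaks fall on the same 2 places, and the shNC track is empty.

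EWSR1, the FET protein first known as a fusion partner in Ewing sarcoma (chr22:29268268-29300521, plus strand, 32254 nt), had 1 shNC peak, 1 shTRA2A peak and none in shMETTL3. The control peak was chr22:29273743-29274267 (525 nt, score 19.3, rank 2130 of 9206), 5475 nt from the start of the gene. The shTRA2A peak was chr22:29299180-29299229 (50 nt, score 7.94, rank 1453 of 2736), 1292 nt before the gene end. Equal peak numbers in shNC and shTRA2A therefore stood for different places at opposite ends of the gene. The shTRA2A score was shared by 9 peaks of its list.

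HNRNPA1, a splicing repressor and mRNA export factor (chr12:54280726-54287087, 6362 nt), had 2 shNC, 3 shTRA2A and 3 shMETTL3 peaks. The control peaks were chr12:54284521-54284745 (225 nt, score 20.9, rank 1849) and chr12:54286246-54286320 (75 nt, score 10.7, rank 6032). In shTRA2A the peaks lay further upstream, at chr12:54282130-54282179 (50 nt, score 5.86, rank 2699), chr12:54282205-54283217 (1013 nt, score 18.7, rank 44) and chr12:54283731-54284345 (615 nt, score 19.3, rank 38). None of them touched a control peak, and the nearest gap was 175 nt. In shMETTL3, chr12:54282398-54282838 (441 nt, score 9.59, rank 1845) and chr12:54283881-54283955 (75 nt, score 7.74, rank 3535) each lay inside an shTRA2A peak. The best shMETTL3 peak of the gene, chr12:54284496-54284570 (75 nt, score 18.3, rank 365), shared 50 nt with the first control peak instead. In HNRNPA1 the shMETTL3 list thus had peaks both on a control place and on shTRA2A places.

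HNRNPA3, a close relative of HNRNPA1 (chr2:177212794-177223959, plus strand, 11166 nt), had 3 shNC, 2 shTRA2A and 1 shMETTL3 peaks. The control peaks were chr2:177216513-177216587 (75 nt, score 39.0, rank 517), chr2:177216934-177217747 (814 nt, score 32.1, rank 798) and chr2:177221551-177221625 (75 nt, score 11.3, rank 5464). The shTRA2A list held chr2:177216538-177216587 (50 nt, score 11.7, rank 211), inside the first control peak, and chr2:177216696-177219325 (2630 nt, score 45.2), which covered the second control peak whole. The latter ranked 4 of 2736, the best place of any member peak in that list. A single shMETTL3 peak, chr2:177216513-177219500 (2988 nt, score 7.95, rank 3241 of 5433), spanned both places and began on the first base of the first control peak. The third control peak, nearest the 3′ end, was met by neither knockdown list. The lower peak numbers of the knockdown lists in HNRNPA3 thus went with longer peaks, and the gene's peaks spanned 964 nt in shNC, 2680 nt in shTRA2A and 2988 nt in shMETTL3.

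Set side by side, the control places of these genes were found again in part. Of the 6 control peaks, 2 shared a base with an shTRA2A peak, 33.3% (exact Clopper-Pearson 95% interval 4.33 to 77.7%), and both were in HNRNPA3. Over all control peaks that share was 9.58%. For shMETTL3, 3 of the 6 were met (interval 11.8 to 88.2%), in HNRNPA3 and HNRNPA1, against 17.9% of all control peaks. Among the best 10% of control peaks by score these shares were higher, 38.4% for shTRA2A and 54.1% for shMETTL3. Of the 6 member control peaks 2 lie in that part, and they are the 2 in HNRNPA3 that shTRA2A met. Intervals here and below cover counting error alone and treat peaks as independent, which peaks of the same gene may not be. Of the 11 shTRA2A peaks, 2 lay on a control peak, 18.2% (2.28 to 51.8%), against 33.8% of all shTRA2A peaks. Of the 8 shMETTL3 peaks, 2 did so (interval 3.19 to 65.1%), against 32.7% of all. The peaks of TAF15 and HNRNPA2B1 could meet no control peak by the choice of these genes, and in the other 3 genes 2 of 6 shTRA2A and 2 of 4 shMETTL3 peaks did.

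Between the knockdown lists, 7 of the 11 shTRA2A peaks shared a base with an shMETTL3 peak, 63.6% (30.8 to 89.1%), against 23.8% of all shTRA2A peaks. In the other direction 6 of 8 did (interval 34.9 to 96.8%), against 11.8% of all shMETTL3 peaks. Among the best 10% of each list by score these shares over all peaks were 55.3% for shTRA2A, where 9 of the 11 member peaks lie, and 15.8% for shMETTL3, where 2 of the 8 lie. TAF15 and HNRNPA2B1, chosen for peaks in both knockdown lists, gave 3 of the 7 shTRA2A peaks. Without these genes the counts were 4 of 6 shTRA2A and 3 of 4 shMETTL3 peaks. HNRNPA1 and HNRNPA3 each gave 2 of the 7, and EWSR1 none. A first or last base was common to 2 of the 7 overlapping pairs of knockdown peaks, in TAF15 and HNRNPA2B1. Over all 675 such pairs this share was 48%, so a common edge is ordinary in these lists. Peaks on an shMETTL3 peak and on no control peak were 5 of the 11, in TAF15, HNRNPA2B1 and HNRNPA1, against 7.86% of all shTRA2A peaks. Without the genes chosen from the lists this count was 2 of 6, both in HNRNPA1. No test was made of these shares, since the genes were chosen with the lists in view.

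The place of the member peaks within each list by score describes that list alone, since the lists differ in length and a rank shows no change between conditions. In shTRA2A, 9 of the 11 were in the best 10% by score, 81.8% (48.2 to 97.7%), and 8 were in the best 5%, where by construction 9.98% of the list lies in the best 10%. The median rank was 61 of 2736. In shNC 2 of 6 were in the best 10% (9.99% of the list) with a median rank of 1989.5 of 9206, and both belonged to HNRNPA3. In shMETTL3 2 of 8 were in the best 10% (9.99% of the list), the isolated TAF15 peak and the HNRNPA1 peak on the control place, and the median rank was 2144.5 of 5433. Without TAF15 and HNRNPA2B1, 4 of 6 shTRA2A, 2 of 6 shNC and 1 of 4 shMETTL3 peaks were in the best 10%. The exceptions in shTRA2A were the EWSR1 peak and the 50 nt peak of HNRNPA1.

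In shTRA2A, 6 of the 11 member peaks had a width that is no multiple of 25 nt, the step of most peaks. All 6 were in the best 10%, against 3 of the 5 others. Wider peaks did not always rank better, since in HNRNPA2B1 the 50 nt peak had rank 110 and the 541 nt peak rank 120. Over all shTRA2A peaks 32.7% were off this step, and 39.2% of those in the best 10%. In shMETTL3 4 of the 8 were off the step (29.7% of the list) and none of these was in the best 10%, and in shNC 1 of 6 (19.4% of the list). The median width of the member peaks was 326 nt in shTRA2A, 204 nt in shMETTL3 and 150 nt in shNC, against 100, 100 and 125 nt over the whole lists and 325, 125 and 450 nt in the best 10% of each. The part of width in the ranks was not tested.

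**Figure D3:**
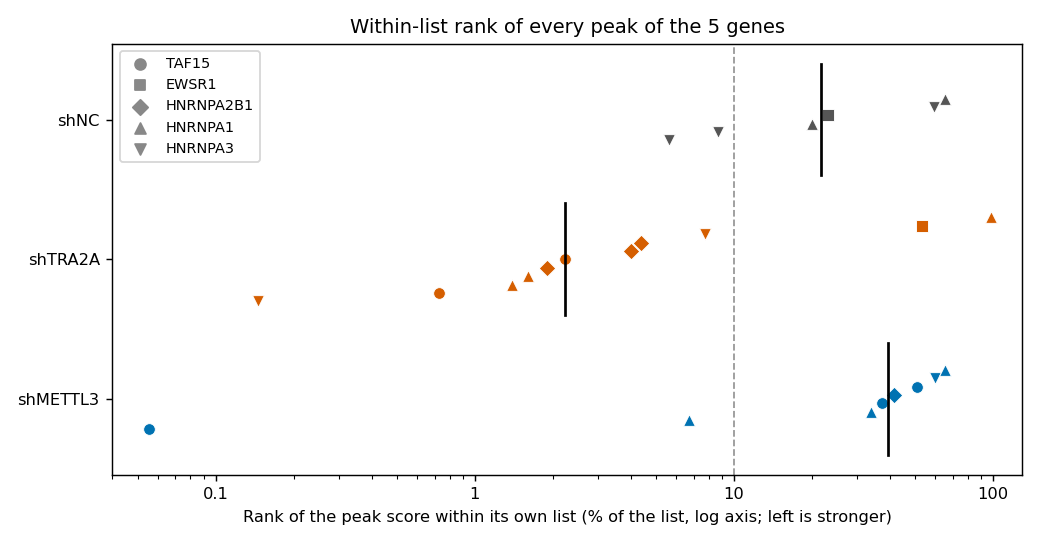
Rank of each peak of the 5 genes within its own list, as a percent of the list on a log x axis where left is stronger, with 1 row per list, 1 symbol per gene, a black bar at the median and a dashed line at 10%. Left of the line lie 9 of 11 shTRA2A, 2 of 6 shNC and 2 of 8 shMETTL3 peaks. Without TAF15 and HNRNPA2B1, which were chosen from the lists, these counts are 4 of 6, 2 of 6 and 1 of 4. A rank describes its own list alone and shows no change between conditions.

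HNRNPA1 and HNRNPA3 have many processed copies in the genome, and how reads matching several places were counted is not stated in the labels, so their peaks are uncertain to that extent. The RefSeq table names 75 pseudogenes of HNRNPA1, 17 of HNRNPA3 and 2 of EWSR1. Of all these, HNRNPA1P16 (chr17:2306762-2308048) alone held a peak, 1 in shMETTL3. The annotated start windows of EWSR1, HNRNPA2B1 and HNRNPA3 (from 250 bases before to 50 after the start) were touched by no peak in any list.

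The wider families were counted from fixed lists of 60 genes, which include the 5 members. In the FET and hnRNP A/B families together, 5 of the 10 genes counted had an shNC peak, 8 an shTRA2A peak and 5 an shMETTL3 peak. Without TAF15 and HNRNPA2B1 these counts were 5, 6 and 3 of 8. More peaks in shTRA2A than in shNC were found in 6 of the 10 genes and fewer in 2, whereas 3.93% of all coding genes had more and 19.1% fewer. Without TAF15 and HNRNPA2B1 there were 4 with more and 2 with fewer of 8. The shares over all coding genes take in genes without a peak in either list. Of the 55 listed genes that are not members, 10 had more and 16 fewer. For shMETTL3 there were 3 with more and 4 with fewer, or 1 and 4 without the chosen genes, and 8.20% of all coding genes had more and 16.4% fewer. HNRNPA0, an hnRNP that binds AU-rich elements, had 1 shNC, 2 shTRA2A and 0 shMETTL3 peaks. HNRNPD, also known as AUF1, and its relative HNRNPDL each had a single peak, in shTRA2A (ranks 794 and 289), and HNRNPA1L2 had 2, 0 and 1. These last 3 were named after their values were seen. HNRNPAB had no peak in any list.

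Other hnRNPs were at the same number in shNC and shTRA2A, 9 of 21 genes, with 6 in shMETTL3. HNRNPH3, a splicing regulator of the H/F group, had 1 shNC peak, 5 shTRA2A peaks and 7 shMETTL3 peaks. Of these, 4 of the shTRA2A and 3 of the shMETTL3 peaks also touched RUFY2, so by position alone the gene of origin is uncertain. On the plus strand were 3 of these 4 shTRA2A and 2 of these 3 shMETTL3 peaks. HNRNPH1, from the same group, had no shNC, 2 shTRA2A and 1 shMETTL3 peaks. It was the only other gene of the 60 with the pattern of TAF15 and HNRNPA2B1, by peak presence alone. Its best shTRA2A peak ranked 2557 of 2736, near the end of that list, and it stood at place 185 in the order of the 213 genes. SYNCRIP, an mRNA-stabilising hnRNP, had 4, 1 and 2 peaks, HNRNPUL2 1, 3 and 0, and HNRNPUL1 2, 1 and 1. The HNRNPUL1 peak in shMETTL3 was the best of that list, with a score of 151 and a width of 275 nt.

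Prion-like and granule proteins had an shNC peak in 11 of 16 genes, 68.8% (41.3 to 89.0%), an shTRA2A peak in 8 and an shMETTL3 peak in 7. In this group 1 gene had more peaks in shTRA2A than in shNC and 7 had fewer, beside the 3.93% and 19.1% of all coding genes. Those shares again take in genes without a peak in either list. Only a gene with an shNC peak can have fewer, so the 7 are of 11 such genes here. Over all coding genes 3831 had fewer, of 4398 with an shNC peak. TARDBP, the RNA-binding protein TDP-43, had 3, 1 and 1 peaks, ATXN2, a granule component, also 3, 1 and 1, the RNA helicase DDX6 2, 1 and 2, and the stress granule protein G3BP2 1, 1 and 2. Paraspeckle and nuclear matrix proteins had a peak in 2, 1 and 3 of 8 genes, SAFB with 2, 0 and 2 peaks, MATR3 with 1, 0 and 1, CPSF6 with 0, 1 and 0, and RBM14 with 0, 0 and 1. Among proteins that import or methylate FET proteins, TNPO1, TNPO2 and CARM1 had 1 peak each, in shNC, shTRA2A and shMETTL3, and PRMT1 and PRMT5 had none. Over the 55 listed genes that are not members, 25 had an shNC, 22 an shTRA2A and 18 an shMETTL3 peak (45.5, 40.0 and 32.7%). The shares over all coding genes, for these and for the group counts above, were 21.9, 9.55 and 17.1%.

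**Figure D4:**
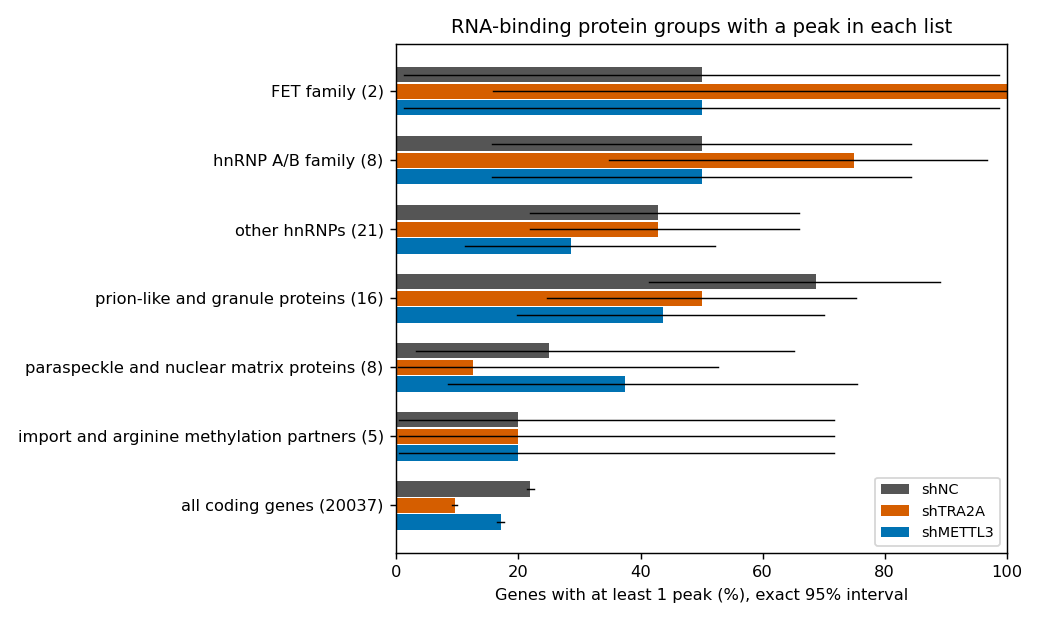
Percent of the genes of each group with at least 1 peak in each list (bars, number of genes in brackets, lines for exact 95% intervals), with all coding genes in the lowest set. The shTRA2A bar is the highest in the FET and hnRNP A/B families, whose genes include the 5 members, and shNC is the highest over all coding genes. The FET bars count 2 genes, and TAF15 and HNRNPA2B1 in these families were chosen from the lists. Without them, 5 of 8 genes of both families together had an shNC, 6 an shTRA2A and 3 an shMETTL3 peak.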

How the data were processed

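The deposited files are 12-column peak lists without header, and column 5 holds the score of each peak as deposited by the authors. Its scale, the peak caller and its thresholds are not stated in the labels. Per the submitters' processing notes, the tools included featureCounts 2.0.1, HISAT2 2.2.1 and SAMtools, and the build was GRCh38. Of 4 lists, 3 match a condition, and the other equals the shTRA2A list and was not used. Coordinates count from 1. Gene bodies are those of RefSeq GRCh38.p14 and peaks on either strand were taken. Peaks of different lists overlap if they share at least 1 base on the same strand. This was tested on simulated data and matched bedtools 2.31.1 for every pair of lists (0 peaks differed). Python 3.11.15, pandas 2.3.3 and scipy 1.17.1 were used. The members and gene lists were chosen with earlier results of these data known. Named are the 5 members, up to 4 genes per list with the most peaks, genes with peaks in both knockdown lists alone, and the 5 non-members with the highest smaller percentile among genes with peaks in both knockdown lists alone. A gene of the fixed lists is not reported here. Alternatives varied score limits, list size, merging, gene bounds, strand and the overlap rule.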

Additional observations from a re-analysis of the deposited data

How the results depend on the processing

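Of 90 counts recomputed under 10 alternatives, 77 stayed within 1.5 times. Some of these could not change, so the number is no measure of robustness. The shTRA2A list is itself the shortest, so the limit on list size left its counts as they were. Genes without a listed strand, TAF15 and HNRNPA1 among them, were given the strand of most of their own peaks. Limited to the better-scoring 50% of each list, the members had 5 shMETTL3 peaks in place of 8, and shMETTL3 met 1 control peak in place of 3. With each list limited to the size of the shortest these values were again 5 and 1, and 16 listed genes had an shNC peak in place of 28. The rule of midpoints within 100 nt left 1 control peak met by shTRA2A, in place of 2, and 1 by shMETTL3. Regular peaks alone (a multiple of 25 nt and at most 1000 nt wide, chosen after the widths were seen) gave 5 shTRA2A and 4 shMETTL3 peaks, 2 members with an shMETTL3 peak in place of 4, 1 control peak met by each knockdown, and TAF15 as the 1 gene with peaks in both knockdown lists alone. With 1 list per condition and no read counts, depth and transcript level cannot be told apart from methylation.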
